A study of Neurospora crassa with 18 samples.

Results

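The 3 genes *mus-51* (NCU08290), *mus-52* (NCU00077) and *mus-53* (NCU06264) of *Neurospora crassa* encode the core of nonhomologous end joining, and were followed among the 9730 genes for which RNA was counted. They were taken by locus identifier, without reference to their levels. Nonhomologous end joining repairs a DNA double-strand break by rejoining the broken ends without a matching template. *mus-51* and *mus-52* encode the homologs of KU70 and KU80, which together form the ring that binds a broken end, and *mus-53* encodes the homolog of DNA ligase IV, which seals the break. In *N. crassa*, strains that lack a Ku gene integrate transforming DNA almost only at matching sequence, so they are the usual hosts for gene replacement.

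The study asked how the H3K36 methyltransferases SET-2 and ASH1 relate to gene expression, and sequenced poly-A+ RNA from germinated conidia of 4 strains, with 2 libraries for each. WT (N623) is *mat A* and carries a *his-3* mutation. The Δ*mus-52* strain (N2930) is also *mat A* and *his-3*, with *mus-52* replaced by the *bar* marker. The *ash1*(Y888F) strain (N4878) is *mat A* and *his-3*, makes ASH1 with a tyrosine replaced in its catalytic domain and a 3xFLAG tag joined to *hph*, and is listed without the *mus-52* deletion. The Δ*set-2* strain (N5761) is *mat a*, has *set-2* replaced by *hph*, and carries no listed *his-3* mutation. Each genotype is represented by 1 strain. The dates in the library names put WT and Δ*mus-52* on the same day, both Δ*set-2* libraries and the second *ash1*(Y888F) library on another, and the first *ash1*(Y888F) library on one of its own. Strain and date therefore cannot be told apart where either histone mutant is compared with WT.

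Each library held between 6547197 and 8837798 counts in genes. A further 3.69 to 12% of the reads, taken over these and the counts in genes, fell in no gene or matched more than 1. The 2 libraries of a strain correlated with Spearman's rho of 0.959 to 0.985 across genes. The strain labels were checked on the altered genes. *set-2* (NCU00269) had 113 to 210 counts per library in the strains that carry it, and 46 and 50 in Δ*set-2*, or 17.2 and 20.4 CPM in WT against 5.73 and 6.08. Counts at *set-2* were thus lower but not at 0 in the strain labelled Δ*set-2*, and the sources used here do not give the extent of the deletion, so the check is incomplete. *ash1* (NCU01932) had 556 to 825 counts in WT, Δ*mus-52* and *ash1*(Y888F), but 179 and 181 in Δ*set-2*. The *mat A-1* gene was at 0 counts in each Δ*set-2* library. The 6 marker genes of conidia were measured in all strains, with a summed level of 116 to 184 CPM (counts scaled to a common library size with TMM) in WT, 254 to 266 in Δ*mus-52*, 270 to 321 in *ash1*(Y888F) and 939 to 964 in Δ*set-2*. The conidial markers did not move together: *eas* was at 48.4 and 60.6 CPM in WT, 172 and 188 in Δ*mus-52* and 11.7 and 10.9 in *ash1*(Y888F), whereas *con-8* was at 44.1 and 13.3, then 11.5 and 7.42, then 64.5 and 131 CPM in the same strains. *eas* was the only conidial marker below WT in *ash1*(Y888F). There *con-6*, *con-8*, *con-10*, *con-13* and *cat-1* were above both WT values in both libraries, *con-13* at only 0.61 and 0.53 CPM. In Δ*set-2*, *eas*, *con-8*, *con-10* and *cat-1* were above WT in both libraries, and *cat-1* was the largest at 401 and 454 CPM. *con-6* (37.0 and 4.86 CPM, against 6.02 and 5.07 in WT) and *con-13* (0.12 and 0.24, against 0.14 and 0.13) were not. The 3 markers of sexual tissue summed to 107 to 153 CPM in WT, 116 to 143 in Δ*mus-52*, 359 to 798 in *ash1*(Y888F), and 122 to 134 in Δ*set-2*. In *ash1*(Y888F), *poi-2* was at 97.5 and 35.4 CPM against 1.00 and 1.33 in WT. *asd-1* was at 223 and 722 CPM there against 123 and 73.8 in WT, and *fsd-1* at 39.3 and 41.1. Most of the Δ*set-2* sum was *asd-1* (124 and 105 CPM), while *fsd-1* was at 9.10 and 15.9 CPM there against 29.2 and 32.3 in WT. All of these markers were detected in each library, except 1 conidial marker in 1 Δ*mus-52* library. The part of these shifts in the results was not tested.

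In the RefSeq annotation of assembly NC12, *mus-51* lies on linkage group IV from 2520412 to 2522837 on the plus strand, and *mus-52* on linkage group III from 2531930 to 2535354 on the minus strand. *mus-53* lies on the same linkage group as *mus-52*, from 2116850 to 2120498, on the minus strand. The gene spans are 2426, 3425 and 3649 bp.

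In WT the levels per gene length stepped down from the KU70 gene to the ligase gene. *mus-51* was at 34.6 ± 8.04 CPM per kb of gene span (SD, n = 2), above 79.1% of the 9729 genes with a known length. *mus-52* was at 12.6 ± 1.34 CPM per kb (SD, n = 2), above 56.55% of genes, and *mus-53* was at 3.98 ± 0.200 CPM per kb (SD, n = 2), above 35.59%. The order *mus-51*, *mus-52*, *mus-53* held in each library of WT, *ash1*(Y888F) and Δ*set-2*. The steps were unequal between strains. In Δ*set-2* the means were 16.6, 10.96 and 7.92 CPM per kb, so the 3 genes lay closer together than in WT, and in *ash1*(Y888F) they were 26.1, 15.6 and 6.16 CPM per kb.

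**Figure D1:**
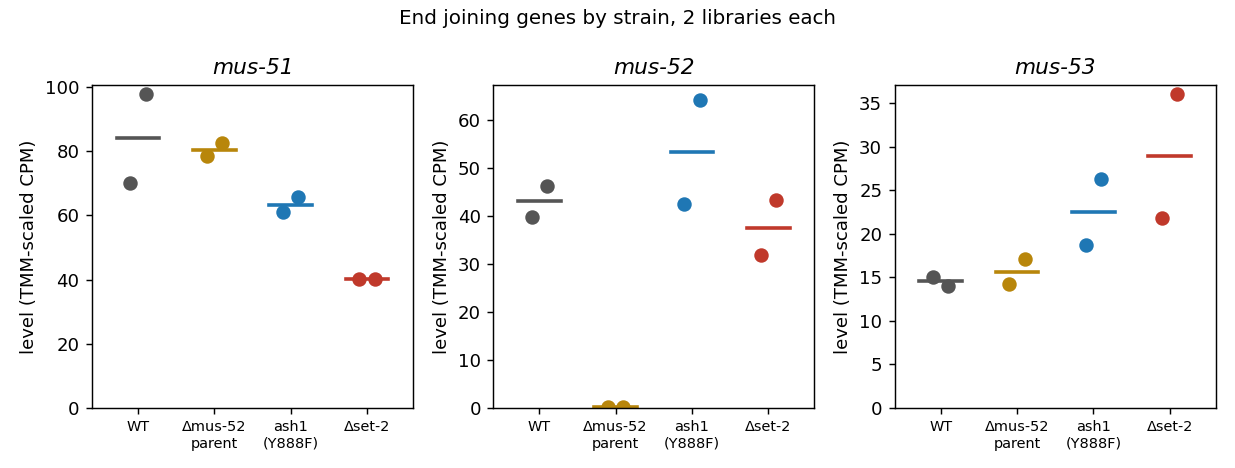
Level of each end joining gene (vertical axis, TMM-scaled CPM, from 0) in WT, Δ*mus-52*, *ash1*(Y888F) and Δ*set-2*, with each of the 2 libraries as a point and their mean as a line. *mus-51* is lowest in Δ*set-2* (40.1 and 40.3 CPM), *mus-52* is near 0 in Δ*mus-52* only, and *mus-53* is lower in WT (14.0 and 15.0 CPM) and Δ*mus-52* than in the histone mutants.

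The first comparison asked whether the partner genes respond where *mus-52* is deleted. *mus-52* itself, the KU80 gene, had 278 and 347 counts in the WT libraries and 2 and 2 counts in the Δ*mus-52* libraries. The groups were far apart: the Δ*mus-52* libraries held 4 counts in all against 625 in WT, a ratio of 177 after scaling (exact 95% counting interval 68.7 to 651), which leaves 0.565% of the WT level (0.154 to 1.46%). This interval covers counting error only. Since *mus-52* was deleted by construction, its value checks the strain label and is no response. In edgeR it fell by 7.38 on the log2 scale (SE 0.30, adjusted p = 0.0148), and it was the 1 member called at an adjusted p under 0.1, in a comparison in which 1.78% of the 7464 genes tested were called, 0.268% higher and 1.51% lower.

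The KU70 gene *mus-51*, whose product pairs with that of *mus-52*, had 490 and 733 counts in WT, against 610 and 711 in Δ*mus-52*, or 70.2 and 97.8 against 78.6 and 82.4 CPM. Both Δ*mus-52* values lay between the 2 WT values. The difference was -0.07 on the log2 scale (SE 0.20, 95% interval -0.59 to 0.45, adjusted p = 0.876 in edgeR). The ligase gene *mus-53* had 105 and 105 counts in WT, against 110 and 147 in Δ*mus-52*, or 15.0 and 14.0 against 14.2 and 17.04 CPM. Here too the groups overlapped, with a difference of 0.10 (SE 0.20, 95% interval -0.42 to 0.62, adjusted p = 0.822 in edgeR). No response of either partner gene was therefore detectable, and the intervals leave room for changes of up to 0.59 on the log2 scale downward in *mus-51* and 0.62 upward in *mus-53*. WT and Δ*mus-52* share their date, so this comparison was made within 1 date. The sign of both differences turned with 1 library: *mus-51* was at 0.19 without the second WT library (adjusted p = 0.709), and *mus-53* at -0.05 without the second Δ*mus-52* library (adjusted p = 0.976).

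**Figure D2:**
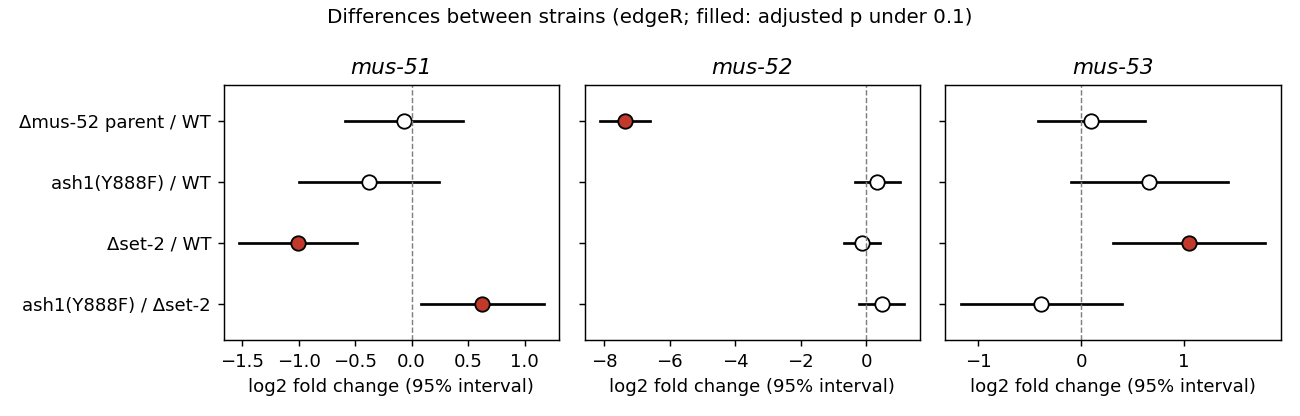
Difference between strains in log2 fold change (horizontal axis, points) with its 95% interval (lines) for each end joining gene and comparison, from edgeR; filled points have an adjusted p under 0.1. Apart from the deleted gene, the filled points are *mus-51* (-1.01) and *mus-53* (1.05) in Δ*set-2* over WT, and *mus-51* (0.63) in *ash1*(Y888F) over Δ*set-2*. Each panel has its own horizontal scale.

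In Δ*set-2* the end joining genes moved in different directions relative to WT. *mus-51* had 323 and 330 counts, or 40.1 and 40.3 CPM, below both WT values of 70.2 and 97.8 CPM. It was 2.01-fold lower, a log2 difference of -1.01 (SE 0.22, 95% interval -1.53 to -0.49, adjusted p = 0.0185 in edgeR). As these are bulk samples, fewer cells that express a gene and less RNA per cell cannot be told apart. *mus-53* had 175 and 296 counts, or 21.8 and 35.98 CPM, above both WT values of 15.0 and 14.0 CPM, and the gap between its 2 mutant libraries was wider than the gap from the lower of them to WT. It was 2.07-fold higher, a log2 difference of 1.05 (SE 0.30, 95% interval 0.31 to 1.79, adjusted p = 0.0449).

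*mus-52* had 255 and 356 counts in Δ*set-2*, or 31.8 and 43.3 CPM, and the WT values of 39.8 and 46.3 CPM overlapped with these. The difference of -0.14 (SE 0.23, 95% interval -0.69 to 0.41, adjusted p = 0.668) did not pass the test. Thus 1 of the 3 genes rose, 1 fell and 1 was not called, in a comparison in which 41.5% of the 7741 genes tested were called, 21.7% higher and 19.8% lower. A called gene was common in this strain, and the members' share is to be read against that.

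The *mus-51* call held in each alternative tried, including without any 1 library (-1.23 to -0.76, adjusted p = 0.0272 to 0.0974), with DESeq2 (-1.03, adjusted p = 0.00428) and with Δ*mus-52* as the control (-0.94, adjusted p = 0.00901). The *mus-53* call held with DESeq2 (1.03, adjusted p = 0.0307) and with Δ*mus-52* as the control (0.95, adjusted p = 0.0498), but was lost without the first WT library (1.10, adjusted p = 0.124), without the second WT library (0.99, adjusted p = 0.191) and without the second Δ*set-2* library (0.62, adjusted p = 0.240).

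In *ash1*(Y888F) no end joining gene was called against WT. *mus-51* had 397 and 495 counts, or 60.9 and 65.6 CPM, below both WT values, and its difference was -0.38 (SE 0.25, 95% interval -0.997 to 0.24, adjusted p = 0.437 in edgeR). *mus-52* had 277 and 483 counts, or 42.5 and 64.1 CPM, which overlapped with WT, with a difference of 0.34 (SE 0.28, 95% interval -0.35 to 1.03, adjusted p = 0.536). *mus-52* was thus present in the strain listed without its deletion.

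*mus-53* had 122 and 198 counts in *ash1*(Y888F), or 18.7 and 26.3 CPM, above both WT values. The difference of 0.66 (SE 0.31, 95% interval -0.10 to 1.42, adjusted p = 0.274) did not pass the test, and its interval holds both no change and the difference seen in Δ*set-2*. Of the 3 genes, 0 passed at an unadjusted p under 0.05 in edgeR, whereas 1943 of all 8125 genes tested passed. DESeq2 called 0 of the 3. In this comparison 16.3% of the 8125 genes tested were called, 13% higher and 3.36% lower. With only the second *ash1*(Y888F) library, which shares its date with Δ*set-2*, *mus-53* was at 0.88 (adjusted p = 0.0993), and with only the first at 0.38 (adjusted p = 0.493). All comparisons with WT rest on the same 2 WT libraries.

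Set against each other, the histone mutants differed in *mus-51*, which *ash1*(Y888F) held above Δ*set-2* by 0.63 (SE 0.23, 95% interval 0.08 to 1.17, adjusted p = 0.0952 in edgeR), the 1 member called where 31.7% of 8314 genes were. Both *ash1*(Y888F) values (60.9 and 65.6 CPM) lay above both Δ*set-2* values. *mus-52* differed by 0.48 (SE 0.29, 95% interval -0.21 to 1.17, adjusted p = 0.279) and *mus-53* by -0.39 (SE 0.33, 95% interval -1.17 to 0.39, adjusted p = 0.438), and the libraries of the mutants overlapped for both genes. The *mus-51* call was narrow: DESeq2 gave 0.62 with adjusted p = 0.112, no low-count filter gave 0.62 with adjusted p = 0.104, and the call was lost with any 1 of the 6 libraries left out (0.59 to 0.71, adjusted p = 0.114 to 0.290). Within the date the mutants share, *mus-51* differed by 0.71 (adjusted p = 0.115), *mus-52* by 0.77 (adjusted p = 0.104) and *mus-53* by -0.14 (adjusted p = 0.817), with 1 *ash1*(Y888F) library.

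The ratio of *mus-51* to *mus-53* counts per kb within a library does not depend on how libraries are scaled to each other. It was 7.02 and 10.5 in WT, 8.34 and 7.28 in Δ*mus-52*, 4.90 and 3.76 in *ash1*(Y888F), but 2.78 and 1.68 in Δ*set-2*. Both libraries of each histone mutant lay below all 4 WT and Δ*mus-52* libraries, and the Δ*set-2* libraries lay below the *ash1*(Y888F) libraries. The ratio of the Ku genes, *mus-51* to *mus-52*, was 2.49 and 2.98 in WT, against 2.02 and 1.45 in *ash1*(Y888F) or 1.79 and 1.31 in Δ*set-2*, so that the histone mutants overlapped with each other but not with WT. The ratio of *mus-52* to *mus-53* was 2.82 and 3.52 in WT, against 2.42 and 2.60 in *ash1*(Y888F) or 1.55 and 1.28 in Δ*set-2*. These ratios follow from the levels above and were not tested.

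**Figure D3:**
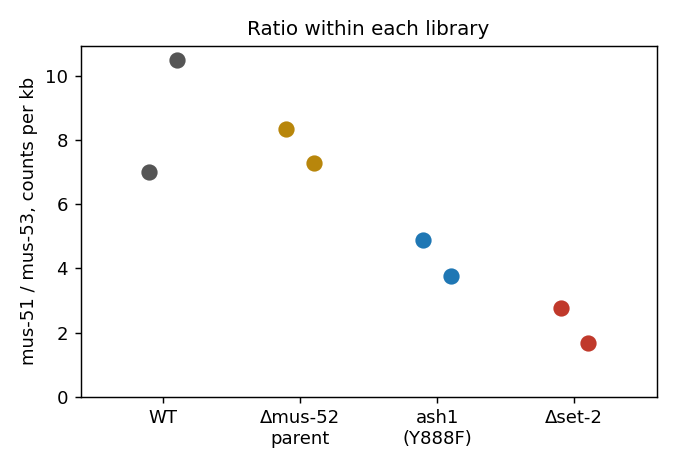
Ratio of *mus-51* to *mus-53* counts per kb of gene span (vertical axis, from 0) in each library, by strain; each point is 1 library. The Δ*set-2* points (2.78 and 1.68) are lowest and the WT points (7.02 and 10.5) span the Δ*mus-52* points.

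The chromatin state at the genes came from the authors' gene lists, each from 1 ChIP-seq sample. The ASH1 lists came from H3K36me2 in Δ*set-2*, not in WT, and the H3K27me2/3 list came from WT. Of the 9730 genes, 1970 are listed as marked by ASH1-dependent H3K36me2 and 7760 as unmarked. *mus-53*, the ligase gene, is ASH1-marked, and both Ku genes are unmarked. None of the 3 is among the 836 genes listed as marked by H3K27me2/3. ASH1-marked genes were mostly low in WT, with a median of 0.162 CPM per kb against 13.9 for unmarked genes, and *mus-53* lay above 86.14% of them. In *ash1*(Y888F), 681 of the 1167 marked genes tested were higher than in WT (58.4%, against 13% of all genes tested), and *mus-53* was not among them. The low-count filter was applied within each comparison, and passed 634 marked genes for Δ*mus-52* and 774 for Δ*set-2*. Marked genes near 0 in WT could pass only through their counts in *ash1*(Y888F). The 58.4% therefore follows in part from the filter, and is no measure for *mus-53*, which was counted in WT too.

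The 2 annotated genes on each side of each member were then examined, to see whether a member moved alone. Beside *mus-52*, the gene that differed in Δ*mus-52* was *qip* (NCU00076), which encodes an exonuclease that works with the Argonaute QDE-2 in RNA silencing. *qip* starts 21 bases beyond the end of *mus-52*, on the same strand. It had 109 and 123 counts in WT but 588 and 550 in Δ*mus-52*, against 103 and 126 in *ash1*(Y888F) or 134 and 195 in Δ*set-2*. Both Δ*mus-52* libraries stood above all others. *qip* rose by 2.12 on the log2 scale in Δ*mus-52* (adjusted p = 0.0509 in edgeR, 2.24e-11 in DESeq2), 1 of the 0.268% of genes called higher there, and stayed called without any 1 library (1.98 to 2.23, adjusted p = 0.0352 to 0.0487). It was not called in *ash1*(Y888F) (0.05, adjusted p = 0.944) or Δ*set-2* (0.39, adjusted p = 0.301). The deletion allele and a change of *qip* transcription of any other origin cannot be told apart in 1 strain.

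The gene on the other side of *mus-52*, NCU00078, had 301 and 308 counts in WT, against 456 and 420 in Δ*mus-52* and was called in no comparison. NCU00079, which overlaps NCU00078 on the opposite strand, had 137 and 167 counts in WT, 424 and 267 in *ash1*(Y888F), but 44 and 27 in Δ*set-2*. It was higher in *ash1*(Y888F) (1.29, adjusted p = 0.0728) and lower in Δ*set-2* (-2.20, adjusted p = 0.00692), and the mutants differed from each other by 3.48 (adjusted p = 0.00192). The call in *ash1*(Y888F) was lost on leaving out 3 of the 4 libraries in turn (0.78 to 1.65, adjusted p = 0.00886 to 0.260). *tim14* (NCU00075), named for a mitochondrial import component, overlaps the far end of *qip* on the opposite strand and was lower in *ash1*(Y888F) (-0.84, adjusted p = 0.0985, lost on leaving out 3 of the 4 libraries) and in Δ*set-2* (-0.75, adjusted p = 0.0269, lost on leaving out 2). With Δ*mus-52* as the control in edgeR, *tim14* was called in neither mutant (-0.48, adjusted p = 0.259, and -0.37, adjusted p = 0.128). NCU00079 was then not called in *ash1*(Y888F) (0.73, adjusted p = 0.253) but stayed lower in Δ*set-2* (-2.74, adjusted p = 0.0029).

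Beside *mus-53*, the gene 223 bases away on the same strand, NCU06265, is listed as unmarked. It had 186 and 168 counts in WT, 140 and 233 in Δ*mus-52*, 545 and 1005 in *ash1*(Y888F), then 1406 and 2266 in Δ*set-2*. Each mutant library exceeded each WT and Δ*mus-52* library. NCU06265 was higher than WT by 2.17 in *ash1*(Y888F) (adjusted p = 0.0104) and by 3.26 in Δ*set-2* (adjusted p = 0.00188), and in Δ*mus-52* its difference was -0.13 (adjusted p = 0.815). Both calls held without any 1 library.

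On the other side of *mus-53*, NCU06263, which is ASH1-marked and 2097 bases away, had 0 and 0 counts in WT, 1 and 2 in Δ*mus-52*, 84 and 154 in *ash1*(Y888F), but 1 and 1 in Δ*set-2*. It was thus seen above 2 counts in *ash1*(Y888F) only, at least 81.7-fold above WT with a floor of 3 counts over the WT libraries. In edgeR it was called against WT (adjusted p = 0.00573) and against Δ*set-2* (adjusted p = 0.00172). NCU06263 passed the low-count filter only through its counts in *ash1*(Y888F), so these calls are no separate support for the difference in counts. In Δ*mus-52* and Δ*set-2* against WT it was not tested. NCU06263 was called higher than WT in *ash1*(Y888F) and NCU06265 in both mutants. *mus-53* was not called in *ash1*(Y888F) with all libraries in the fit, and whether it was called in either mutant depended on the libraries included. Differences between *mus-53* and its neighbours were not tested. NCU06262 was called in no comparison, and NCU10274 had at most 1 count in any library and was not tested.

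Beside *mus-51*, neither adjoining gene was called in Δ*set-2*. NCU08291, 149 bases away on the opposite strand, and *dmm-2* (NCU08289), a gene that limits the spread of DNA methylation and lies 430 bases away on the same strand, were called in no comparison. NCU08292 was lower in *ash1*(Y888F) (-1.13, adjusted p = 0.0496), a call lost on leaving out 2 of the 4 libraries (-1.23 to -1.05 over the 4 in turn), and not in Δ*set-2* (-0.27, adjusted p = 0.317). With Δ*mus-52* as the control in edgeR, NCU08292 was not called in *ash1*(Y888F) (-0.70, adjusted p = 0.167). NCU08288, 10145 bases away, was lower in Δ*set-2* (-0.76, adjusted p = 0.0253), but at 0.35 (adjusted p = 0.244) against Δ*mus-52*.

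**Figure D4:**
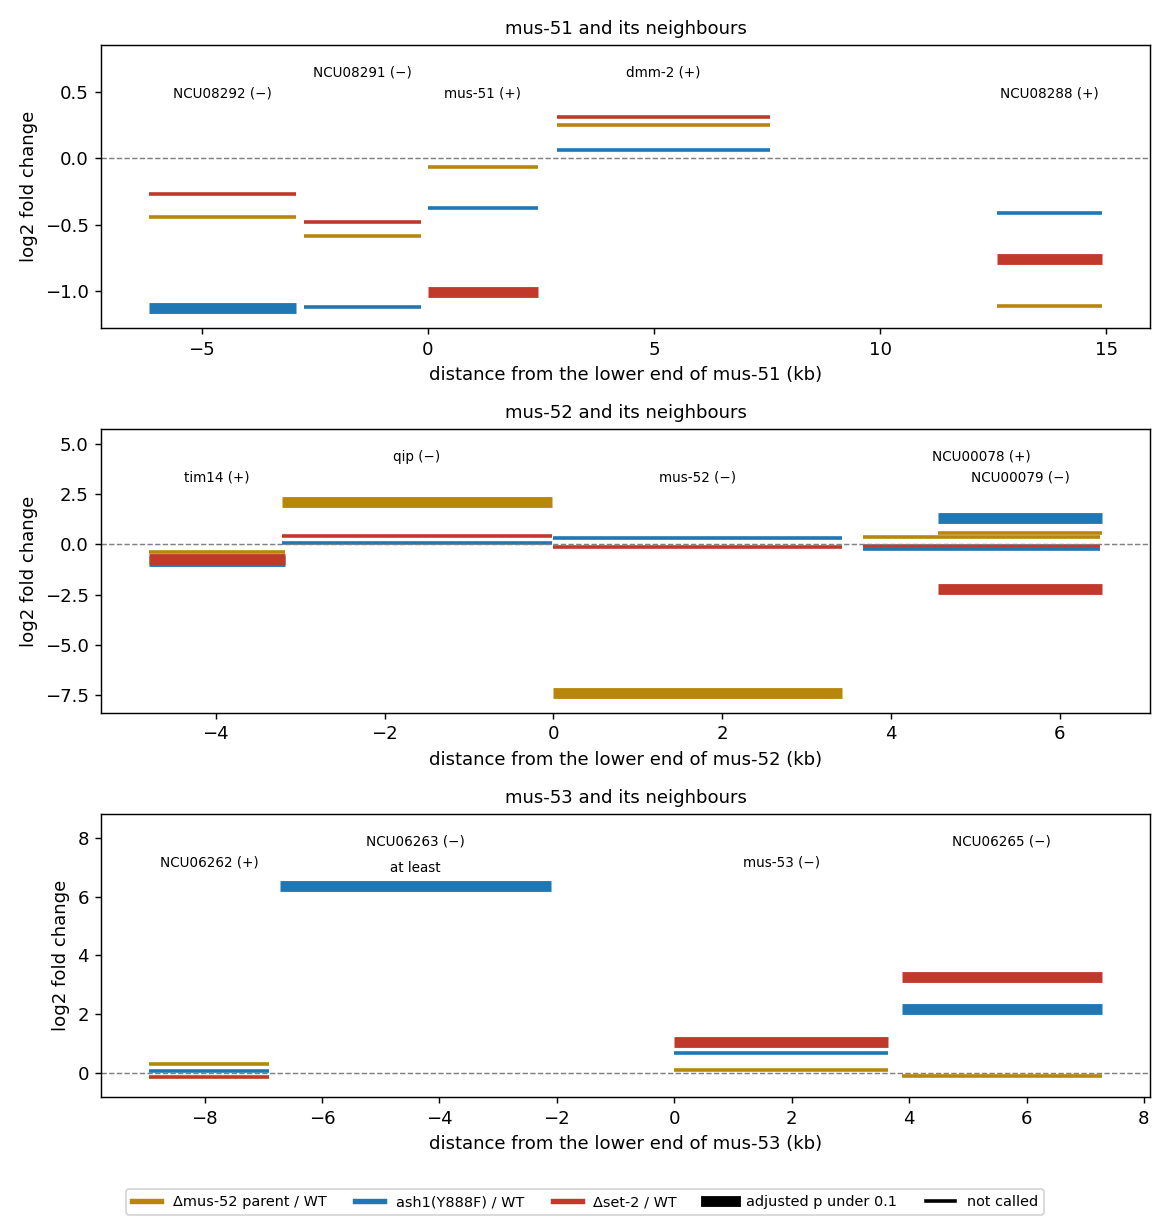
Log2 fold change over WT (vertical axis) of the end joining genes and the 2 annotated genes on each side, drawn along the chromosome as distance in kb from the lower end of each member (horizontal axis), with the strand in parentheses; thick bars have an adjusted p under 0.1 and thin bars do not. *qip* is at 2.12 in Δ*mus-52* beside the deleted gene, NCU06265 is at 2.17 and 3.26 in the histone mutants beside *mus-53*, and NCU06263 is drawn at its lower bound of 81.7-fold. Genes not tested in a comparison have no bar.

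The other DNA repair pathways were described with a list of 27 *N. crassa* genes, of which 22 matched the annotation and were tested in each comparison. In Δ*mus-52* 1 of the 22 was lower, 0 were higher and 21 were not called, with a median log2 difference of -0.13 against 0.01 over all genes tested. Of all genes tested, 1.51% were called lower and 0.268% higher. At an unadjusted p under 0.05 in edgeR, 3 were lower and 0 higher, where 805 of the 7464 genes tested were lower and 527 higher. The called gene was *phr*, which encodes the photolyase that reverses UV damage by light. It was at 129 and 83.1 CPM in WT, against 24.1 and 27.7 in Δ*mus-52*, with no overlap, and fell by 2.04 on the log2 scale (adjusted p = 0.0726). Without 1 of the 4 libraries in turn, *phr* was at -2.32 to -1.68 (adjusted p = 0.0220 to 0.115, above the threshold in 1 of the 4).

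In *ash1*(Y888F) 0 of the 22 repair genes were called, with a median of -0.20 against 0.01, where 13% of all genes tested were called higher and 3.36% lower. At an unadjusted p under 0.05, 1 was lower, *phr* (-1.58, adjusted p = 0.171 in edgeR), and DESeq2 called 0 higher and 1 lower. Over all 8125 genes tested, 582 were lower and 1361 higher at that unadjusted p, and DESeq2 called 343 lower and 1161 higher.

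In Δ*set-2* 4 of the 22 were higher, 9 were lower and 9 were not called, where 21.7% of all genes were called higher and 19.8% lower. The median was -0.33 against 0.01. The smallest p-values among the lower genes belonged to *mus-42*, the homolog of the translesion polymerase REV1, to *mus-23*, the homolog of the end-processing nuclease MRE11, and to *uvs-2*, which belongs to postreplication repair. *mus-42* had 175 and 189 counts in WT, against 42 and 54 in Δ*set-2* (-2.03, adjusted p = 0.00493). *mus-23* had 309 and 322 against 126 and 147 (-1.32, adjusted p = 0.00715), and *uvs-2* had 90 and 107 against 43 and 44 (-1.28, adjusted p = 0.0187). For each of these 3 genes, both Δ*set-2* libraries lay below both WT libraries, and each call held without any 1 library. As the 3 were picked by their p-values in these same libraries, this follows from the choice and is no separate support.

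By pathway, 5 of the 6 postreplication repair genes tested, 1 of the 2 homologous recombination genes and both break end processing genes were lower in Δ*set-2*, as was the RecQ helicase gene *qde-3*. No damage checkpoint gene and no gene of excision repair and photoreactivation was called lower. Of all genes tested, 19.8% were called lower. The pathways hold few genes each, and differences between them were not tested. Among the lower genes, *uvs-6* of break end processing (-0.57, adjusted p = 0.0703) and *mus-41* of postreplication repair (-0.55, adjusted p = 0.0906) lost their calls with any 1 of the 4 libraries left out and with DESeq2 (adjusted p = 0.113 and 0.181). *mus-26* lost its call on leaving out 2 of the 4 libraries, and *upr-1*, *mus-11* and *qde-3* on leaving out 1. The higher genes were the UV damage endonuclease gene *mus-18* (1.15, adjusted p = 0.0277), *phr* (0.91, adjusted p = 0.0529), and the checkpoint kinase genes *prd-4* (0.75, adjusted p = 0.0318) and *mus-58* (0.95, adjusted p = 0.0772). Each of these 4 calls was lost on leaving out 2 or 3 of the 4 libraries in turn. Without the second WT library the counts were 0 higher and 3 lower, and without either Δ*set-2* library 2 were higher. The summed conidial markers were 939 to 964 CPM in Δ*set-2* against 116 to 184 in WT, though not every marker was higher in both libraries. The part of the markers in these differences was not tested.

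In *ash1*(Y888F) against Δ*set-2*, 4 repair genes were higher and 3 lower, with a median of 0.17 against 0.07 over all genes, where 17.7% of all genes tested were called higher and 14% lower. The 3 smallest p-values were for *mus-18* (-2.10, adjusted p = 0.0169), *qde-3* (1.04, adjusted p = 0.0176) and *mus-26* (1.39, adjusted p = 0.0185), the homolog of REV7. *mus-18* had 129 and 57 counts in *ash1*(Y888F), against 571 and 346 in Δ*set-2*. The 4 higher genes became 1 without the first Δ*set-2* library and 2 without the second.

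**Figure D5:**
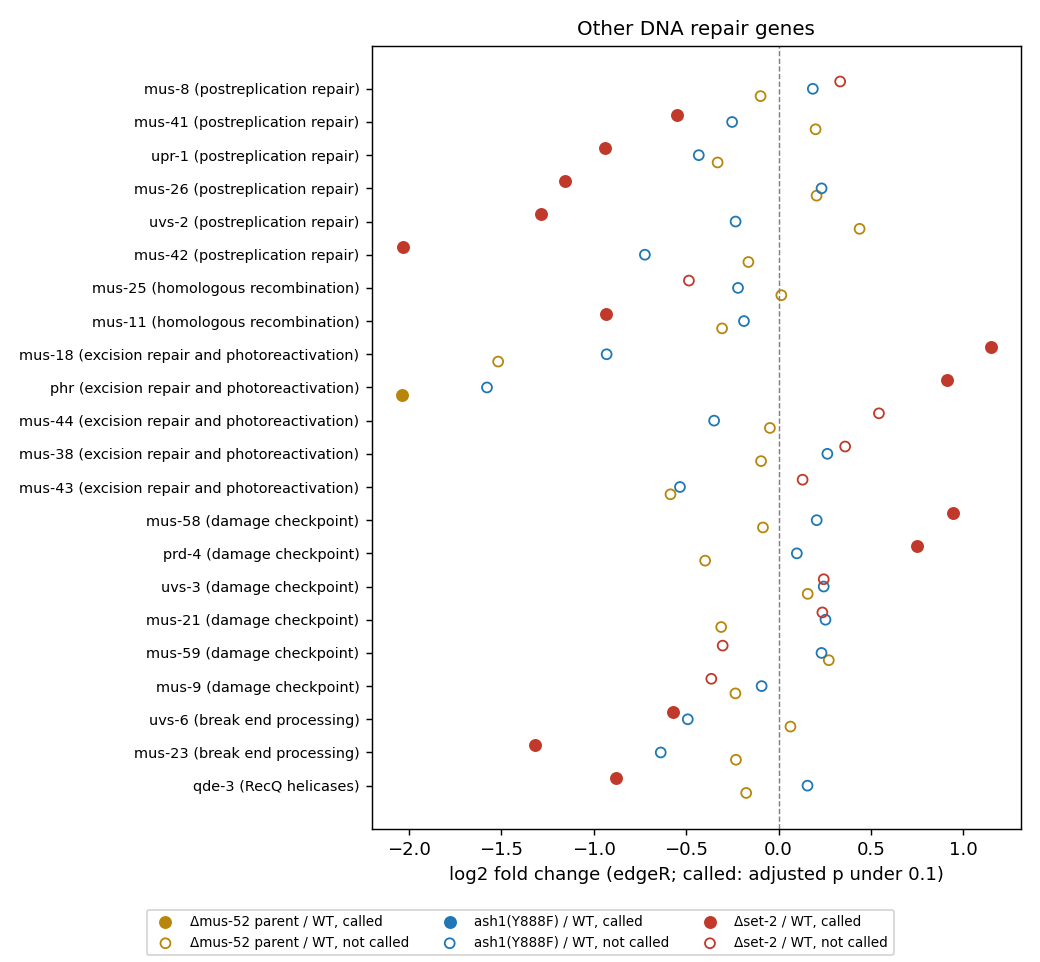
Log2 fold change over WT (horizontal axis) of the 22 other DNA repair genes tested, by pathway, with 1 colour for each strain; filled circles have an adjusted p under 0.1. In Δ*set-2* 9 filled circles lie below 0 and 4 above, in Δ*mus-52* the 1 filled circle is *phr* (-2.04), and in *ash1*(Y888F) all circles are open.

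The genes whose levels ran most like each member were found by Pearson's r of log2 CPM, as a description over few libraries that cluster by strain. For *mus-51*, over 8 libraries and among 7053 genes, they were NCU06057 (0.983), NCU09065 (0.979) and NCU03816 (0.977). For *mus-53*, over the same libraries, they were NCU03969 (0.975), NCU07445 (0.967) and NCU08369 (0.966). For *mus-52*, over the 6 libraries of strains that carry it and among 7122 genes, they were NCU06192 (0.985), NCU04224 (0.981) and NCU05829 (0.978).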

How the data were processed

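The RNA values are raw counts for each gene, as deposited by the authors. Reads from stranded poly-A+ libraries were cleaned in Stacks and then passed through TopHat2, SAMtools and strand-aware HTSeq. Their versions and the build used for RNA were not given in the sources used here. The authors' ChIP-seq gene lists, made with Bowtie2 and deepTools, carry a score of 0 for each gene and were used as lists. The authors' tables of changed genes (DESeq2 fold changes and p-values) and log2 ratios of H3K27 marks were not used. In a table without column names, 3 count columns were identical to other libraries, and 4 were left out, as no name ties them to a sample. Each sample holds 2 libraries, which the study calls biological replicates.

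Strains were compared with edgeR 4.0.16 in R 4.3.3 (quasi-likelihood test after TMM scaling and filterByExpr, whose minimum count is 10, with Benjamini-Hochberg adjustment over all genes tested and calls at an adjusted p under 0.1), 2 libraries against 2. The histone mutants were compared in a fit with WT. Standard errors and intervals were derived from the test's F value and are approximate. DESeq2 1.42.0, RLE size factors, no filter, all 4 strains in the fit, a block for the library number, an adjusted p under 0.05, other controls and each library left out were the alternatives. The fits were tested on simulated data with 100 genes changed 2-fold and 100 changed 8-fold in each comparison. Every 8-fold change was recovered. Fewer 2-fold changes were: against WT, 50 in Δ*mus-52*, 40 in Δ*set-2* but only 16 in *ash1*(Y888F). Between the histone mutants 26 were recovered. False calls numbered 17, 5, 6 and 12 in the same order. The lack of a call therefore does not by itself exclude a 2-fold change. Gene positions and symbols are from RefSeq (NC12, counted from 1). Levels between genes were to be set per kb of exon, but exon lengths were not used here and gene spans stood in for them, introns included.

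The members, the repair list, the markers and the tests were chosen with earlier results of these data known. Genes named are the members, the 2 annotated genes on each side, the altered genes of the strains, up to 3 called repair genes with the smallest p in each comparison, and the 3 genes most correlated with each member (mean of at least 5 CPM, prior count of 2). Other repair genes were named after their values were seen. 1 repair gene is not reported here and was left out of the list and its counts.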

Additional observations from a re-analysis of the deposited data

How the results depend on the processing

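Most values of the end joining genes kept their direction and call. Exceptions with 1 library left out, some given above, were *mus-51* in Δ*mus-52* over WT (-0.28 to 0.19), *mus-53* in Δ*mus-52* (-0.049 to 0.21), *mus-52* in *ash1*(Y888F) (-0.0051 to 0.60), *mus-53* in *ash1*(Y888F) (0.38 to 0.88), *mus-52* in Δ*set-2* (-0.40 to 0.036), *mus-53* in Δ*set-2* (0.62 to 1.34), and, between the mutants, *mus-51* (0.59 to 0.71) and *mus-53* (-0.69 to 0.037). *mus-51* between the mutants was also lost with DESeq2 and no filter (0.62 in both), and NCU08288 in Δ*set-2* reversed against Δ*mus-52* (0.35). The causes were not tested.

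The library numbers come from library names, and same-numbered libraries deviated together in only some strain pairs (r of -0.22 to 0.62), so they do not pair the samples. With the replicate number as a block, *mus-51* in Δ*set-2* stayed called (-1.24, adjusted p = 0.0512) and *mus-53* did not (0.67, adjusted p = 0.433), *mus-52* in *ash1*(Y888F) turned to -0.085, and *mus-51* between the mutants was at 0.40 (adjusted p = 0.422). Called genes went from 133 to 1390 in Δ*mus-52*, from 1326 to 740 in *ash1*(Y888F) and from 3211 to 1415 in Δ*set-2*. Called repair genes became 3 lower in Δ*mus-52*, 2 higher and 4 lower in Δ*set-2*, and 0 higher between the mutants.

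Called genes in Δ*mus-52* were also 40 with all 4 strains in the fit, 537 with DESeq2 and 5 at an adjusted p under 0.05. With 1 library left out, with a single library assumed as variable as the other group, they ranged from 80 to 242 in Δ*mus-52*, 843 to 2232 in *ash1*(Y888F), 1450 to 2953 in Δ*set-2* and 1277 to 3137 between the mutants (2638 with all). Lower repair genes then numbered 0 to 2, 0 to 3 and 3 to 7 in the 3 strains, higher ones 0 to 3 in Δ*set-2* and 1 to 6 between the mutants. With all 4 strains in the fit, the lower repair genes were 0 in Δ*mus-52* and 1 in *ash1*(Y888F), and the higher ones 2 in Δ*set-2*. With DESeq2 they were 2 lower in Δ*mus-52* and 1 in *ash1*(Y888F).

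WT and Δ*mus-52* together as the control, chosen after seeing the data, gave -0.99 for *mus-51* and 0.98 for *mus-53* in Δ*set-2*, both called. Exon length in place of gene span was not run. With 2 libraries per strain, p-values measure the spread between libraries only, and at 105 to 296 counts *mus-53* is the least precisely counted of the 3 where all are present.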
